A study of Mus musculus with 8 samples.

Results

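Bone morphogenetic protein (BMP) signaling was followed through 9 genes: the ligands Bmp2, Bmp4 and Bmp7, the secreted antagonist Grem1, the membrane-bound pseudoreceptor Bambi, the inhibitory SMAD Smad6, and the target genes Id1, Id2 and Id3. They were taken by gene symbol, and 11 of the 23978 probes that carried a symbol belonged to them, out of 16593 named genes on the array. Expression was measured on Illumina MouseRef-8 bead arrays in total RNA from whole tissue of C57BL/6 mice. The 4 groups were normal colon of wild-type mice, normal colon of caspase-12 deficient mice, colon tumors of wild-type mice and colon tumors of caspase-12 deficient mice, with 2 arrays in each and 8 in all. The labels do not tell whether both arrays of a group come from different animals. The p-values therefore cover just the spread seen between these samples, and that spread may be technical. The sources used here do not state the cause of the tumors, the age and sex of the mice or the allele behind the deficiency.

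BMPs are secreted dimers that bind pairs of type I and type II receptor kinases on the cell surface. The activated receptors phosphorylate SMAD1, SMAD5 and SMAD9, which join SMAD4, enter the nucleus and switch on target genes, the Id genes being the best known. Id proteins are helix-loop-helix factors without a DNA-binding region, which capture other helix-loop-helix factors and hold back differentiation. In the colon, BMP ligands are made by the stroma and by differentiated epithelium, while antagonists such as gremlin 1 come from muscle and myofibroblasts around the crypt base.

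SMADs bind the promoters and enhancers of their targets at short motifs, so the RefSeq promoter windows of the targets are shown first. RefSeq windows on GRCm38.p6 were found for 5 of the 9 genes. The 250 bases before the transcription start were searched on both strands for the GC-rich SMAD1 and SMAD5 motif GGCGCC and for the SMAD-binding core CAGAC, which are printed in capitals (CAGAC on the other strand reads GTCTG). No match of one overlapped a match of the other. The windows of Id2 and Id3 are printed because both are classical BMP targets, Id3 being the one that passed a test below and Id2 the one whose brighter probe separated the groups in all 4 comparisons between groups. The Id2 window lies at chr12:25096093-25096342 on the minus strand, and the Id3 window at chr4:136143572-136143821 on the plus strand, both 5′ to 3′.
Id2: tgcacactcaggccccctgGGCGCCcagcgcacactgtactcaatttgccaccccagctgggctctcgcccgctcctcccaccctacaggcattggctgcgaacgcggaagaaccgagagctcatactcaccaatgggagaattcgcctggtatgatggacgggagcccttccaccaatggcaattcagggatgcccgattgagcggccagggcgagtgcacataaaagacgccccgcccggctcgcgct
Id3: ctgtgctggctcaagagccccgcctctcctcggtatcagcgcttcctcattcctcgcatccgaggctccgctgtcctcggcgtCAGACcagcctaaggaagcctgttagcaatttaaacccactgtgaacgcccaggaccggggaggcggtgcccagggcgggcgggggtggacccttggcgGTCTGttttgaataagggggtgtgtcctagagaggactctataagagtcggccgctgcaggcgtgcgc

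The Id2 window held 1 GGCGCC and 0 CAGAC, and the Id3 window 0 GGCGCC and 2 CAGAC. The Grem1 window held 1 of each, and those of Bmp4 and Smad6 held 0 of either. Of 32851 RefSeq promoter windows of this length, 9.59% held GGCGCC and 42.2% held CAGAC. A match in letters is a description of the window and not a binding site.

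A detection p under 0.01 counted as above background. Of the 9 genes, 6 (Bmp4, Grem1, Id1, Id2, Id3 and Smad6) had a probe above background on all 8 arrays. Bmp7 was above background on 5 arrays, and Bmp2 and Bambi on 0. The test took probes that cleared this level on 2 or more of the 8 arrays, and this kept 9 of the 11 probes and 7 of the 9 genes. All values are log2 intensities after background correction and quantile normalization. A level is compared only with levels of the same probe, since probes differ in brightness.

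**Figure D1:**
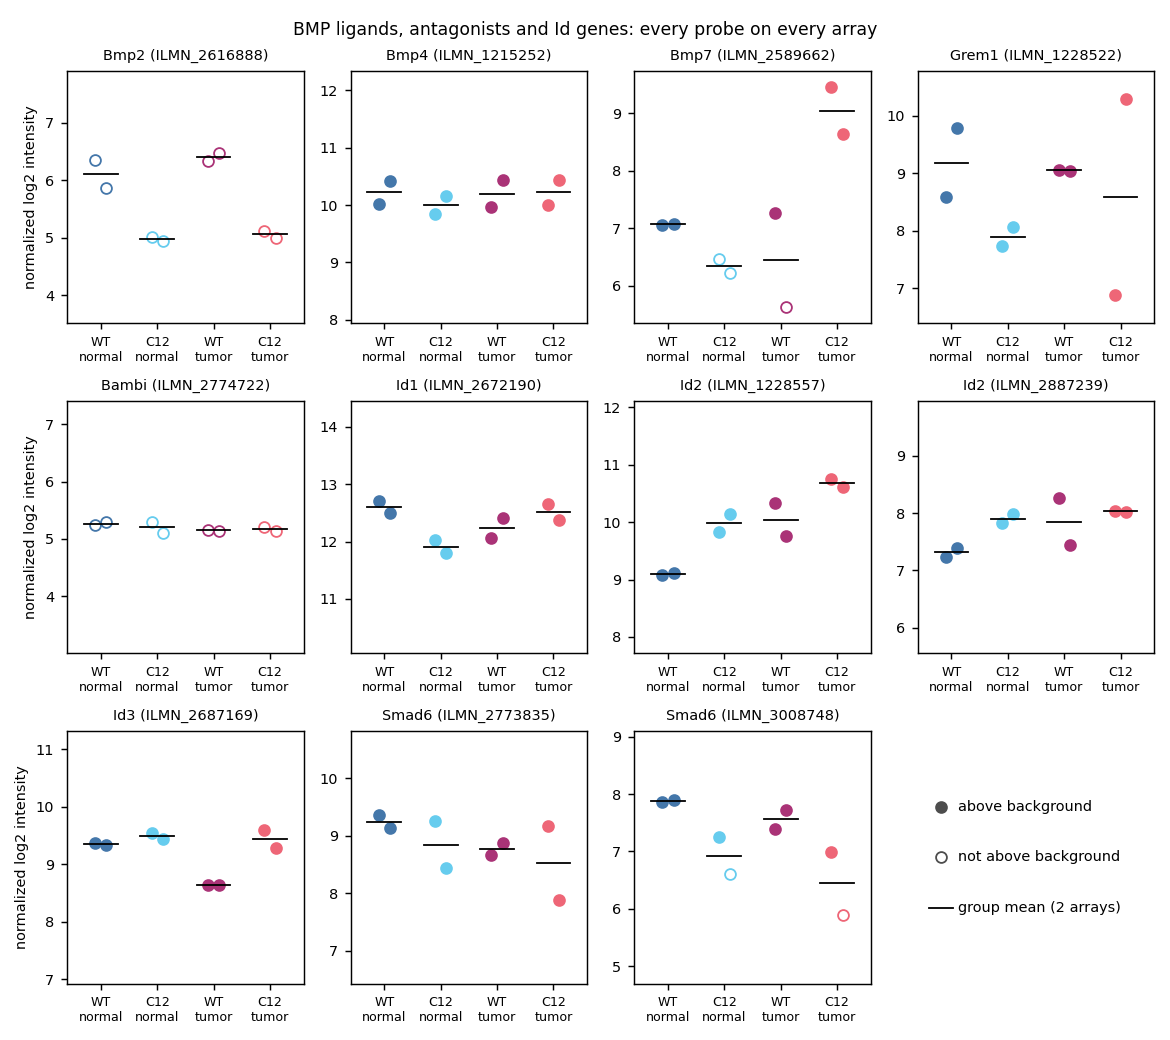
Normalized log2 intensity (y axis, the same span of log2 units in each panel) of all 11 probes in the 4 groups (x axis, WT wild type, C12 caspase-12 deficient). Each point is 1 array, filled when above background, and each line is the mean of 2 arrays. The 2 deficient tumors are the highest arrays for Bmp7, at 9.45 and 8.64, and the Grem1 arrays of deficient tumors lie far apart, at 6.87 and 10.30.

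The arrays as a whole set limits to what can be read from these genes. The share of probes above background lay between 43.7% and 49.1% per array, and the mean intensity ran from 1112.5 to 1181.52. Replicates correlated across tested probes at 0.976 in both normal groups, 0.945 in tumors of wild-type mice and 0.938 in those of deficient mice. The probe of Casp12, the targeted gene, was above background on 2 of the 8 arrays, both of deficient mice. The sources used here do not place it relative to the deleted part, so it does not check the labels. Of 8 colon epithelium markers, all were above background on every array except in the deficient tumors, where 7 were and the chloride exchanger Slc26a3 was not. Their summed normalized intensity was 102500 and 113600 in the deficient tumors and 165200 to 188100 on the other arrays. In deficient tumors 5 of the 8 were called lower, both against deficient normal colon and against wild-type tumors. Of all genes tested 10.5% and 9.09% were called lower in these comparisons. Squamous epithelium markers summed to 1549 to 2720 in wild-type normal colon and 2006 to 2121 in deficient normal colon. They summed to 86850 and 1339 in the 2 wild-type tumors and to 65670 and 169200 in the 2 deficient tumors. Skeletal muscle markers stood at 91320 in deficient tumor replicate 1 and between 621.1 and 4368 on the other arrays. In whole tissue, fewer cells of a type and less RNA per cell cannot be told apart.

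Of the 3 ligands, Bmp7 passed in 2 comparisons, Bmp4 passed in none, and Bmp2 was below background and not tested. Bmp7 belongs to the BMP5, BMP6 and BMP7 branch of the ligands and is known for its part in kidney, eye and epithelial development. Its probe (ILMN_2589662) read 7.05 and 7.08 in normal colon of wild-type mice, 6.46 and 6.23 in that of deficient mice, 7.26 and 5.63 in tumors of wild-type mice, and 9.45 and 8.64 in those of deficient mice. Both deficient tumors lay above all 6 other arrays.

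In deficient mice Bmp7 rose in tumors over normal colon by 2.70 log2 units (SE 0.51, limma adjusted p = 0.0118, n = 2 arrays each). Normal colon of these mice was above background on 0 of 2 arrays, so the fold change is a bound, at least 4.70-fold, made by setting those arrays no lower than the dimmest value called above background. Of the 7 tested genes Bmp7 was the 1 that passed in this comparison. Of all 9341 genes tested 19.9% passed, 9.43% higher and 10.5% lower. The call was lost when deficient normal replicate 1 (2.82, adjusted p = 0.0645) or replicate 2 (2.58, adjusted p = 0.0834) was left out. In each fit that leaves out an array, here and below, the lone array of that group is assumed to vary like the other groups.

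Deficient tumors were also higher in Bmp7 than wild-type tumors, by 2.60 log2 units (SE 0.51, limma adjusted p = 0.0162). Wild-type tumor replicate 2 was not above background, so the size of this difference rests in part on a background signal and no fold is given. Bmp7 and Id3 were the 2 of 7 genes that passed here, both higher, against 17.6% of all genes tested, 8.54% higher and 9.09% lower. Without deficient tumor replicate 1 the Bmp7 difference was 2.17 and was not called (adjusted p = 0.0650). The same held when the 4 tumor arrays were fitted alone (adjusted p = 0.0724).

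Squamous markers moved with Bmp7 in part, as the plot of members beside marker lists shows. Wild-type tumor replicate 1 had 10 of 10 squamous markers above background and a Bmp7 level of 7.26, close to wild-type normal colon. Its squamous sum was 86850. Deficient tumor replicate 1 had a lower sum, 65670, with Bmp7 at 9.45, and replicate 2 had 169200 with Bmp7 at 8.64. With wild-type tumor replicate 1 as the only wild-type tumor the Bmp7 difference was 1.78, and with replicate 2 as the only one it was 3.40. The part of squamous tissue in the Bmp7 difference was not tested.

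In wild-type mice Bmp7 differed between tumor and normal colon by −0.62 (SE 0.51, adjusted p = 0.679). In normal colon deficient minus wild type gave −0.72 (adjusted p = 0.522), with wild-type arrays at least 1.19-fold brighter and no overlap. The difference between the tumor effects of the 2 genotypes was 3.32 (SE 0.73, limma adjusted p = 0.0516), above the threshold of 0.05. It was under the threshold in 5 of 17 alternatives, with adjusted p-values from 0.0203 to 0.169.

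Bmp4, a ligand made mainly by the stroma under the epithelium, passed in no comparison. Its probe (ILMN_1215252) read 10.02 and 10.43 in normal colon of wild-type mice, 9.84 and 10.16 in that of deficient mice, 9.96 and 10.44 in tumors of wild-type mice, and 10.00 and 10.44 in those of deficient mice. The groups overlapped throughout, and all 8 arrays lay within 0.60 log2 units. In each of the 4 groups replicate 2 read higher than replicate 1. The tumor minus normal difference was −0.02 in wild-type mice (95% interval −0.69 to 0.65, adjusted p = 0.985) and 0.22 in deficient mice (−0.46 to 0.89, adjusted p = 0.634). Between genotypes the difference was −0.22 in normal colon and 0.02 in tumors.

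Bmp2, a close relative of Bmp4 expressed towards the top of the crypt, was not above background on any array. Its probe (ILMN_2616888) read 6.36 and 5.86 in wild-type normal colon and 6.33 and 6.48 in wild-type tumors. It read 5.01 and 4.94 in deficient normal colon and 5.12 and 5.00 in deficient tumors. The detection p ran from 0.0125 to 0.0902 on the wild-type arrays and from 0.382 to 0.727 on the deficient arrays. No difference is given, because all arrays were below background, and the probe was not tested.

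Grem1 encodes gremlin 1, which binds BMP2, BMP4 and BMP7 outside the cell and keeps them from their receptors. Its probe (ILMN_1228522) read 8.59 and 9.79 in normal colon of wild-type mice, 7.73 and 8.06 in that of deficient mice, 9.06 and 9.04 in tumors of wild-type mice, and 6.87 and 10.30 in those of deficient mice. The lowest and the highest of the 8 arrays were thus the 2 deficient tumors. Deficient normal colon lay below wild-type normal colon without overlap, a difference of −1.29 log2 units (SE 0.96) that did not pass (adjusted p = 0.541).

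No comparison of Grem1 passed, and the intervals were wide. Tumor minus normal was 0.70 in deficient mice (95% interval −1.54 to 2.93, adjusted p = 0.646) and −0.14 in wild-type mice (−2.37 to 2.10, adjusted p = 0.971). Which deficient tumor was kept decided the outcome. Without deficient tumor replicate 1 Grem1 was called higher in deficient tumors than in deficient normal colon (2.43, adjusted p = 0.0214). Without deficient tumor replicate 2 it was called lower in deficient than in wild-type tumors (−2.18, adjusted p = 0.0247).

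Of 9216 other named genes, the one whose pattern over the 8 arrays was most like that of Grem1 was chordin (Chrd, Pearson r = 0.976, Spearman rho = 0.976), another secreted BMP antagonist. Chrd read 8.30 and 8.86 in normal colon of wild-type mice, 7.81 and 7.89 in that of deficient mice, 8.35 and 8.78 in tumors of wild-type mice, and 7.39 and 9.15 in those of deficient mice. As for Grem1, the deficient tumors held the lowest and the highest array. The best match among so many genes is high by selection, and the 8 arrays share groups, so no p-value is given.

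Smooth muscle markers also differed between the 2 deficient tumors, with a summed intensity of 55080 in replicate 1 and 96950 in replicate 2. The wild-type tumors had 157400 and 158300. In deficient against wild-type tumors 6 of the 7 markers were called lower, against 9.09% of all genes tested, and Grem1 differed by −0.46. In normal colon the sums were 103500 to 106800 in wild-type and 126200 to 126800 in deficient mice, where Grem1 differed by −1.29. Fibroblast markers summed to 37210 and 52490 in deficient tumor replicates 1 and 2 and to 59350 and 38540 in the wild-type tumors. In normal colon they summed to 21030 to 23250 in wild-type and 31420 to 35730 in deficient mice. The part of smooth muscle and fibroblasts in the Grem1 values was not tested.

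**Figure D2:**
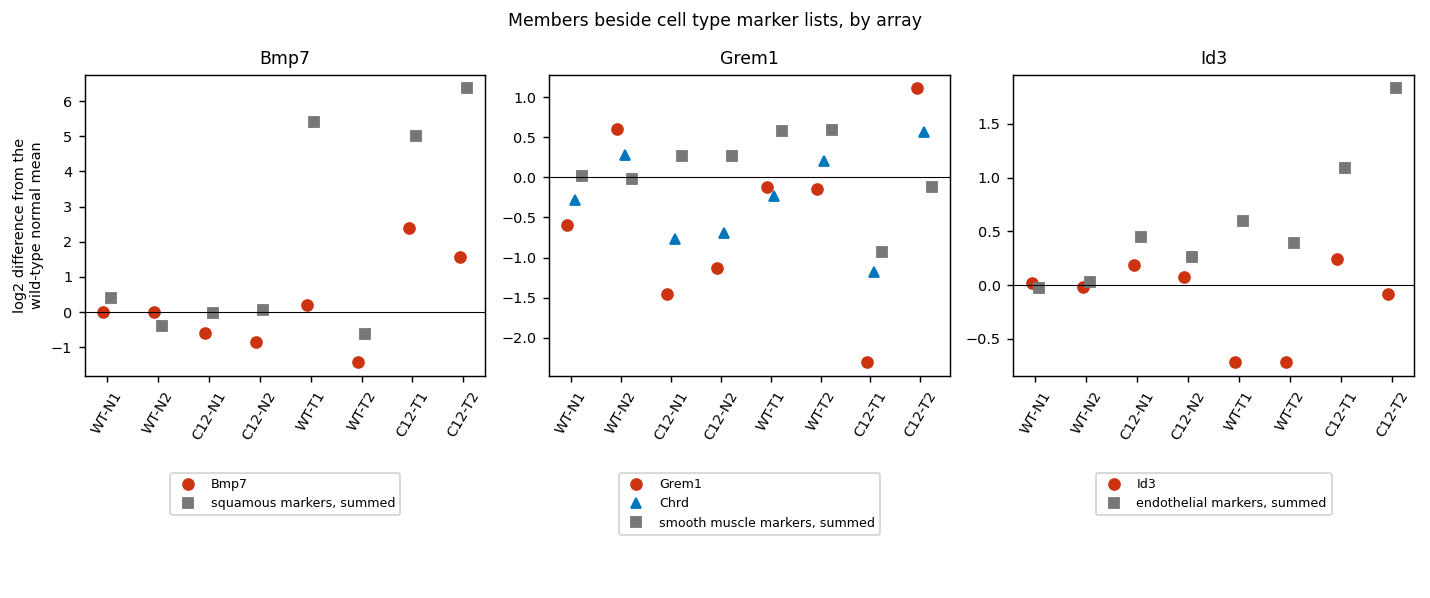
Log2 difference of each array from the wild-type normal mean (y axis) for Bmp7, Grem1 and Id3 beside the summed intensity of a marker list, by array (x axis, WT wild type, C12 caspase-12 deficient, N normal colon, T tumor). Grem1 and Chrd share their order in the deficient tumors, and wild-type tumor replicate 1 has squamous markers at 86850 with Bmp7 at 7.26. The y axes differ between panels.

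Bambi, a pseudoreceptor that resembles a type I receptor but lacks the kinase, was not above background on any array. Its probe (ILMN_2774722) stayed within 0.19 log2 units over all 8 arrays, from 5.11 to 5.30, and was not tested.

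Smad6 encodes an inhibitory SMAD that is switched on by BMP signaling and then blocks its receptors and SMAD1. Its brighter probe (ILMN_2773835) read 9.37 and 9.14 in normal colon of wild-type mice, 9.26 and 8.44 in that of deficient mice, 8.67 and 8.87 in tumors of wild-type mice, and 9.18 and 7.89 in those of deficient mice. The groups overlapped except that both wild-type tumors lay below both wild-type normal arrays. None of the 4 differences between groups passed, the adjusted p ranging from 0.653 to 0.743.

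The dimmer Smad6 probe (ILMN_3008748) read 7.85 and 7.90 in normal colon of wild-type mice, 7.26 and 6.60 in that of deficient mice, 7.40 and 7.72 in tumors of wild-type mice, and 6.99 and 5.89 in those of deficient mice. Here both deficient arrays lay below both wild-type arrays in each tissue, and 1 of the 2 was above background in each. Deficient minus wild type was −1.12 in tumors (SE 0.39, adjusted p = 0.0889) and −0.95 in normal colon (SE 0.39, adjusted p = 0.267). The brighter probe gave −0.24 and −0.40 for the same comparisons, so the probes agreed in sign and differed in size, and neither passed. The dimmer probe passed in tumors when deficient tumor replicate 1 was left out (−1.65, adjusted p = 0.0364).

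Id1 is the classical early target of BMP receptors. Its probe (ILMN_2672190) read 12.71 and 12.49 in normal colon of wild-type mice, 12.03 and 11.79 in that of deficient mice, 12.07 and 12.40 in tumors of wild-type mice, and 12.66 and 12.38 in those of deficient mice. Wild-type tumors lay below wild-type normal colon and deficient tumors above deficient normal colon, without overlap in either genotype. The differences were −0.37 (SE 0.24, adjusted p = 0.613) and 0.61 (SE 0.24, adjusted p = 0.118), and the difference between them was 0.97 (SE 0.34, adjusted p = 0.158). Deficient normal colon was 1.61-fold lower than wild-type normal colon (−0.69, adjusted p = 0.192). None of these passed.

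Id2 is expressed in epithelium and in innate lymphoid cells, which need it to develop. Its brighter probe (ILMN_1228557) read 9.08 and 9.12 in normal colon of wild-type mice, 9.82 and 10.13 in that of deficient mice, 10.33 and 9.76 in tumors of wild-type mice, and 10.75 and 10.61 in those of deficient mice. Wild-type normal colon was the lowest group and deficient tumors the highest, and the 2 groups between them overlapped. Against wild-type normal colon, wild-type tumors were higher by 0.94 (SE 0.26, adjusted p = 0.412) and deficient normal colon by 0.88 (SE 0.26, adjusted p = 0.142). Deficient tumors were higher than deficient normal colon by 0.70 (adjusted p = 0.101) and than wild-type tumors by 0.63 (adjusted p = 0.130). All 4 intervals lay above 0 before adjustment, and none passed after it.

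The dimmer Id2 probe (ILMN_2887239) had the same sign as the brighter one in all 5 comparisons, with smaller differences between groups. It read 7.24 and 7.38 in normal colon of wild-type mice, 7.82 and 7.98 in that of deficient mice, 8.27 and 7.44 in tumors of wild-type mice, and 8.04 and 8.01 in those of deficient mice. Wild-type normal colon was again the lowest group, and the tumor arrays of the 2 genotypes overlapped.

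Id3 differed from Id2 in that its low group was the wild-type tumors. Id3 is expressed in endothelium and lymphocytes as well as in BMP-responsive epithelium. Its probe (ILMN_2687169) read 9.38 and 9.34 in normal colon of wild-type mice, 9.55 and 9.43 in that of deficient mice, 8.65 and 8.64 in tumors of wild-type mice, and 9.60 and 9.28 in those of deficient mice. Both wild-type tumors lay below the other 6 arrays.

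Deficient tumors were higher in Id3 than wild-type tumors by 0.80 log2 units or 1.74-fold (SE 0.21, 95% interval 0.30 to 1.30, limma adjusted p = 0.0404). The call was lost on leaving out any 1 of the 8 arrays (adjusted p 0.0507 to 0.178, difference 0.64 to 0.97). It was also lost with array weights (adjusted p = 0.0742) and with the 4 tumor arrays fitted alone (adjusted p = 0.133). Tumor minus normal was −0.71 in wild-type mice (adjusted p = 0.483) and −0.05 in deficient mice (adjusted p = 0.895), and the difference between these was 0.67 (adjusted p = 0.263).

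Endothelial markers were higher in the deficient tumors, with 5 and 6 of 7 above background and summed intensities of 5889 and 9814. The wild-type tumors had 5 and 4 above background, with 4182 and 3604, and normal colon of both genotypes had 4, with sums between 2709 and 3781. In wild-type mice the endothelial sums were higher in tumors than in normal colon, while Id3 differed by −0.71. The deficient tumor with 5889 read 9.60 for Id3, and the one with 9814 read 9.28. Leukocyte markers summed to 9800 and 10770 in wild-type and to 11370 and 7235 in deficient tumors. In normal colon of both genotypes they summed to between 4529 and 5822. The part of endothelium and leukocytes in the Id3 values was not tested.

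**Figure D3:**
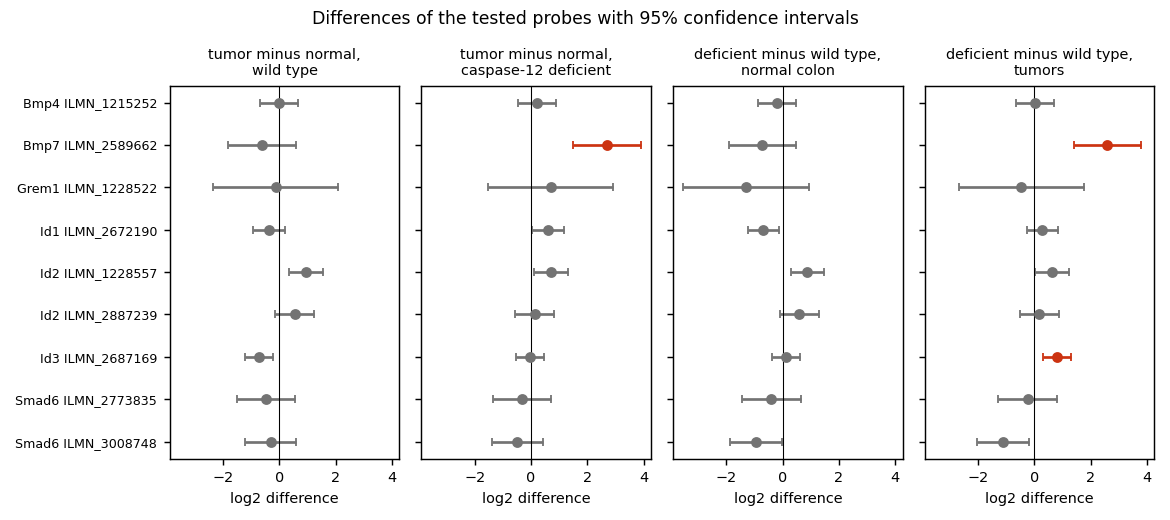
Log2 difference (x axis) of the 9 tested probes (y axis) in 4 comparisons, with 95% confidence intervals from the limma fit. Calls with an adjusted p under 0.05, in red, are Bmp7 in deficient tumors against both deficient normal colon (2.70) and wild-type tumors (2.60), and Id3 in deficient against wild-type tumors (0.80).

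In 3 of the 5 comparisons none of the 7 tested genes passed. Between wild-type tumor and normal colon 0 of all 9341 genes passed in limma (0%), with 1154 of the 13327 probes tested at an unadjusted p under 0.05. Of the 7 genes, 2 (Id2 and Id3) were at that level. Between the genotypes in normal colon 2.30% of all genes passed, 1.16% higher and 1.15% lower, and Id1 and Id2 were the 2 of 7 genes with an unadjusted p under 0.05, against 2367 of the 13327 probes tested. For the difference between the tumor effects of the genotypes 4.03% of all genes passed, 1.73% higher and 2.29% lower, and 2 of the 7 genes (Bmp7 and Id1) had an unadjusted p under 0.05, against 2785 of the 13327 probes.

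With 2 arrays a group, separation of the arrays is common. Tumor and normal arrays did not overlap for 4 of the 7 genes in wild-type mice, against 45.8% of all genes, and for 3 of 7 in deficient mice, against 64.4%. The genotypes did not overlap for 5 of 7 genes in normal colon, against 55.4%, and for 3 of 7 in tumors, against 59.2%. The share of the 7 genes was above that of all genes in the wild-type mice and in normal colon, and below it in the other 2 comparisons. With just 7 genes these shares are coarse, and their distance from the share of all genes was not tested. The median difference of the 7 genes was −0.37 and 0.61 for tumor minus normal in wild-type and deficient mice, −0.40 and 0.28 for genotype in normal colon and tumors, and 0.67 for the interaction. The median of all genes lay between 0.00 and 0.04 in these 5 comparisons.

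Each remaining member above background on all arrays was also set beside its closest match over the 8 arrays. These were the metalloprotease Mmp23 for Bmp4 (r = 0.912, rho = 0.976), the zinc finger factor Plagl2 for Id1 (r = 0.959, rho = 0.905) and the fatty acid elongase Elovl5 for Id2 (r = 0.995, rho = 1). For Id3 the closest was the mitochondrial protease subunit Afg3l1 (r = 0.972, rho = 0.905) and for Smad6 the protein kinase A subunit Prkaca (r = 0.953, rho = 0.952). None of the closest genes was itself a member. Mmp23, like Bmp4, read higher in replicate 2 than in replicate 1 in each group.

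The rest of the BMP pathway was read from a list of 52 further genes, of which 47 had a probe and 29 were tested. In wild-type tumors and between the genotypes in normal colon 0 of the 29 passed. In deficient tumors over normal colon 4 were higher and 4 lower, where 19.9% of all genes tested passed, and the median was 0.40, against 0.00 for all genes. In deficient against wild-type tumors 4 were higher and 2 lower, where 17.6% of all genes passed, and the median was 0.11 against 0.02. Of these, 3 genes passed in both comparisons. The counts of genes called higher, and of those passing in both, include Msx1, which entered the test only through the deficient tumors.

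**Figure D4:**
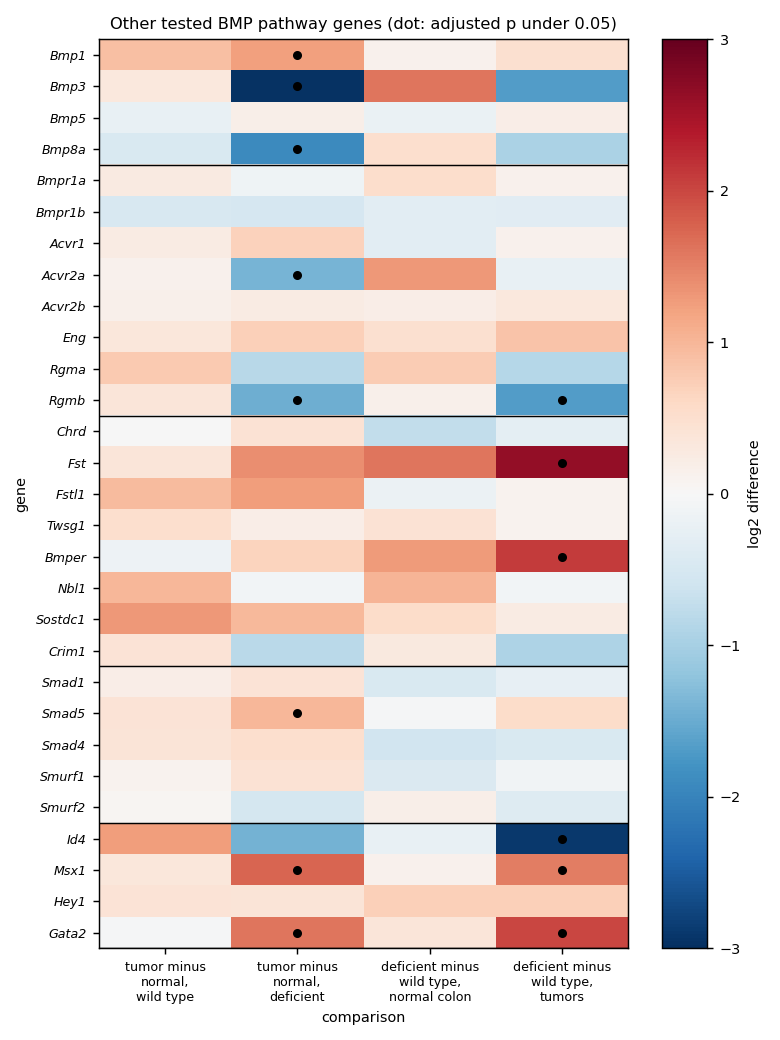
Log2 difference (color) of the 29 other tested BMP pathway genes (rows, grouped from top to bottom as ligands and Bmp1, receptors and co-receptors, secreted antagonists and modulators, SMADs and their ubiquitin ligases, target factors) in 4 comparisons (columns). Dots mark an adjusted p under 0.05, which occur in the 2 comparisons that involve deficient tumors: 8 for tumor minus normal and 6 for genotype in tumors. Both counts include Msx1, which was above background only in the deficient tumors.

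Of the 4 genes tested in the list of ligands and Bmp1, 2 fell and 1 rose in deficient tumors over normal colon. Of all genes tested 10.5% were called lower and 9.43% higher there. Bmp3, an atypical BMP that opposes the others, read 10.54 and 10.63 in deficient normal colon and 6.45 and 8.79 in deficient tumors. It fell by 2.97 (SE 0.65, adjusted p = 0.0193), and the call was lost in 4 of 19 alternatives. Bmp3 read 9.20 and 8.77 in wild-type normal colon and 9.43 and 9.16 in wild-type tumors. Deficient minus wild type was 1.60 in normal colon (adjusted p = 0.254) and −1.68 in tumors (adjusted p = 0.113), and neither passed. Bmp8a read 8.22 and 7.53 in deficient normal colon and was below background in the deficient tumors, at least 2.70-fold lower (adjusted p = 0.00868), a call lost in 1 of 18 alternatives. Bmp1, which despite its name is a protease that cleaves procollagen and chordin, rose by 1.24 (SE 0.25, adjusted p = 0.0142). That call was lost in 3 of 19 alternatives, each of which left out 1 array. In wild-type mice Bmp1 was higher in tumors by 0.89, which did not pass (adjusted p = 0.414). The difference between the tumor effects of the genotypes was 0.35 and did not pass (adjusted p = 0.626). Bmp5 did not pass in any comparison.

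Among the receptors, the activin type II receptor Acvr2a fell in deficient tumors over normal colon by 1.40 (SE 0.34, adjusted p = 0.0293), from 8.14 and 7.93 to 6.47 and 6.81. The call was lost in 5 of 18 alternatives. Acvr2a read 6.98 and 6.48 in wild-type normal colon and 7.31 and 6.42 in wild-type tumors, with 1 of 2 arrays above background in each. Deficient tumors thus lay near the wild-type arrays (−0.23 against wild-type tumors, adjusted p = 0.681). Deficient normal colon was the highest group, 1.30 above wild-type normal colon, which did not pass (adjusted p = 0.111). The BMP co-receptor Rgmb read 8.30 and 7.60 in normal colon of deficient mice, 8.41 and 7.91 in tumors of wild-type mice and 6.15 and 6.80 in those of deficient mice. It was lower in deficient tumors than in deficient normal colon (−1.47, adjusted p = 0.0235) and than in wild-type tumors (−1.68, adjusted p = 0.0175). Each call was lost in 4 of 18 alternatives. Deficient tumor replicate 1 was not above background, so both sizes rest in part on a background signal. Rgma, a second co-receptor of the same family, gave −0.83 and −0.86 in these comparisons and did not pass (adjusted p = 0.286 and 0.271).

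Among the antagonists and modulators, follistatin (Fst), which binds activins and some BMPs, read 6.54 and 5.30 in tumors of wild-type mice and 8.00 and 9.10 in those of deficient mice, a difference of 2.63 (SE 0.50, adjusted p = 0.0148). The lower wild-type array was not above background, so the size of this difference rests in part on a background signal. The call was lost without that array (2.01, adjusted p = 0.0612) and with the tumors fitted alone (adjusted p = 0.0606). Bmper, which binds BMPs and modulates their activity, was below background in wild-type tumors and at least 2.79-fold higher in deficient tumors (7.84 and 8.21, adjusted p = 0.00726). It kept its call in all 18 alternatives that could be run. In normal colon Fst differed between the genotypes by 1.61 and Bmper by 1.27, neither of which passed (adjusted p = 0.157 and 0.0918). Noggin (Nog), a classical BMP antagonist, was above background on 0 arrays and is named here outside the rule, after its values were seen.

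Among the SMADs, the BMP-activated Smad5 rose in deficient tumors over normal colon by 1.00 (SE 0.28, adjusted p = 0.0432), and the call was lost in 8 of 19 alternatives. A second Smad5 probe gave 0.98 and did not pass (adjusted p = 0.0595). The shared partner Smad4 (0.51, adjusted p = 0.178) and the ubiquitin ligase Smurf2 (−0.52, adjusted p = 0.262) did not pass.

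Of the 4 target factors tested, Id4 was lower and Gata2 higher in deficient than in wild-type tumors, where 17.6% of all genes tested passed. Msx1 was also called higher, but it entered the test only through the 2 deficient tumors. Id4, the fourth Id gene, read 10.34 and 10.17 in normal colon of wild-type mice, 9.84 and 10.21 in that of deficient mice, 11.58 and 11.45 in tumors of wild-type mice, and 7.82 and 9.40 in those of deficient mice. Both deficient tumors lay below, and both wild-type tumors above, all normal arrays. Id4 was lower in deficient than in wild-type tumors (−2.90 log2 units, SE 0.46, adjusted p = 0.00866), a call kept in 19 of 19 alternatives, with an adjusted p of up to 0.0492. The difference between the tumor effects of the genotypes was −2.68 (adjusted p = 0.0675). Id3 and Id4 thus differed in opposite directions between the same tumors.

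Gata2, a factor of mast cells, blood progenitors and endothelium, read 6.83 and 6.15 in tumors of wild-type mice and 8.49 and 8.50 in those of deficient mice. It was higher there than in wild-type tumors (2.01, SE 0.27, adjusted p = 0.00556, in 18 of 18 alternatives) and than in deficient normal colon (1.60, adjusted p = 0.00803, in 17 of 18 alternatives). Of the wild-type tumors and of the deficient normal arrays, 1 of 2 each was above background. The homeobox factor Msx1, a BMP target of embryonic mesenchyme and epithelium, was below background on all arrays but the 2 deficient tumors, which read 8.66 and 7.36. It was at least 2.30-fold higher there than in deficient normal colon (adjusted p = 0.0223) and at least 2.77-fold higher than in wild-type tumors (adjusted p = 0.0361). The first call was lost in 5 and the second in 12 of 18 alternatives. Msx1 entered the test only through the 2 arrays that were then called higher. With no filter on dim probes neither call held (limma adjusted p = 0.0516 and 0.074). Beside these 3 factors, 6 of 7 smooth muscle and 5 of 8 colon epithelium markers tested were called lower in deficient than in wild-type tumors. Of all genes tested 9.09% were lower. Of the endothelium markers 3 of 6, and of the squamous epithelium markers 2 of 10, were called higher, against 8.54% of all genes. Their part in these values was not tested.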

How the data were processed

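Gene expression was measured in total RNA on 8 Illumina bead arrays, 2 in each of 4 groups, which were taken from the sample titles. The table deposited without normalization lists 25697 probes with, per the file headers, an intensity and a detection p-value per array. The submitters' processing notes name BeadStudio, version 3.2.7. The deposited series table held log2 values, which matched the log2 of intensity over array mean to within 1.71e-05 and served as an alternative only.

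Intensities were background corrected with the normexp model of limma 3.58.1 (R 4.3.3), with negative control moments inferred from the detection p-values and an offset of 16, quantile normalized and log2 transformed. Of all probes, 13327 were above background on at least 2 arrays and were tested in 1 limma model of the 4 group means, with 4 residual and 3.547 prior degrees of freedom. Tests were two-sided and adjusted (Benjamini-Hochberg) over all tested probes, with a threshold of 0.05. Symbols came from the platform annotation, which gave 1 for 23978 probes and none for 1719. For genes with several tested probes the one with the highest mean stood for the gene. A bound on a fold change sets each array of the dim group at no less than the lowest value above background on that array. The limma fit alone was run on simulated log2 values with known changes, drawn around the means and residual spread of the tested probes. Background correction, normalization, the filter and the bounds were not part of that simulation. Precision is limited by the small number of arrays.

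The text names all probes of the 9 members, every further pathway gene that passed, up to 3 others per list and comparison with the largest absolute difference, the Casp12 check, and for each member above background on all arrays the gene with the highest Pearson correlation, leaving out predicted genes and clone names. Noggin is an exception. The members and the gene lists were chosen with earlier results of these data known. Alternatives covered background correction, offset, scaling, the deposited values, array weights, probe filters, the probe taken for a gene, the groups in the fit, a variance trend, a replicate block and leaving out each array.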

Additional observations from a re-analysis of the deposited data

How the results depend on the processing

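Of the 45 results of the tested member probes, 3 were called and 42 were not, and no call changed sign in any of up to 19 alternatives. Of those not called, 4 passed in at least 1 alternative, and 17 changed sign in at least 1. Bmp7 kept each of its 2 calls in 16 of 18 alternatives, and Id3 kept its call in 9 of 19. Without background correction the Bmp7 differences were 1.65 over deficient normal colon and 1.58 over wild-type tumors.

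Counts of genes called moved with the array left out. They ran from 0 to 80 for wild-type tumors over normal colon (0 with all arrays, 80 without wild-type tumor replicate 2), from 575 to 1953 for deficient tumors over normal colon (1860), from 26 to 375 for genotype in normal colon (215), from 752 to 1451 for genotype in tumors (1647) and from 18 to 850 for the interaction of genotype and tissue (376). The count for deficient tumors over normal colon fell to 673 and 575 without deficient normal replicates 1 and 2 and to 1146 without deficient tumor replicate 1. For genotype in tumors it was 993 and 809 without wild-type tumor replicates 1 and 2 and 752 without deficient tumor replicate 1. Array weights gave 465 genes for genotype in normal colon and 949 in tumors, and the compared groups alone gave 465 and 513. With no filter there were 134 for genotype in normal colon and 211 for the interaction, and with probes detected on all arrays 112 and 243. For tumor minus normal the median of all genes was 0.115 in wild-type and 0.131 in deficient mice with the deposited series values, and −0.136 and −0.0952 with median scaling.

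Counts of members called ran, on leaving out 1 array, from 0 to 2 for deficient tumors over normal colon (1 with all arrays), from 0 to 2 for genotype in tumors (2) and from 0 to 1 for the interaction (0). With probes detected on all arrays, which leaves out Bmp7, they were 0, 1 and 0. Array weights gave 1 for genotype in tumors, and the tumors alone gave 0. For the interaction an offset of 50, array weights and the replicate block each gave 1, which was Bmp7. The replicate numbers were shared across groups. Over all tested probes same-numbered arrays deviated together only weakly (correlations from −0.0311 to 0.161), so they were not taken as pairs. Single genes can differ from this, as Bmp4 read higher in replicate 2 in each group. The replicate block moved Bmp7 from a limma adjusted p of 0.0516 to 0.0352 for the interaction.

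Bmp2 and Bambi had signals below background on every array, which limits what can be said of them. With no filter on dim probes, 3 members passed for genotype in tumors, the third being Bmp2, whose values there compare signals below background.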
